A study of Rattus norvegicus with 8 samples.

Results

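Genes that mark eosinophils, basophils and mast cells were examined in rat whole blood: Prg2, Alox15, Hdc, Cpa3, Fcer1a and Ms4a2. Every probe set whose annotation gave exactly 1 gene symbol, equal to one of these 6, was taken. This gave 6 of 14217 genes and 7 of the 31042 probe sets tested: Ms4a2 had 2 and each other gene 1. A probe set is a group of short probes that reads one transcript on the array.

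The blood came from male Wistar rats, bought at an age of 7 weeks and kept on normal chow (CE-2) for 1 week. They were then fed for 8 weeks on either CE-2, the normal group, or a high-fat diet (Quick fat), and were bled on day 56 after a night without food. Each diet is represented by 4 arrays, labelled as biological replicates, of the 10 animals per diet in the study. Another diet of the study, high-fat with mulberry leaf powder, is not analysed here. The labels do not say which animals were chosen or whether RNA was pooled, so p-values measure the spread between these samples.

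Eosinophils, basophils and mast cells are the effector cells of allergy and of defence against worms. Basophils and mast cells carry the high-affinity IgE receptor, whose alpha chain (Fcer1a) binds the antibody and whose beta chain (Ms4a2) strengthens the signal. When antigen crosslinks the receptor, they release histamine, which is made by Hdc, and proteases such as the carboxypeptidase Cpa3. Eosinophils store the toxic major basic protein (Prg2). Alox15 is a lipoxygenase that oxidizes arachidonic acid, and rat leukocytes other than eosinophils can also make it. Eosinophils and basophils circulate as a small share of white cells, while mature mast cells live in tissue. In whole blood, fewer cells of a type and less RNA per cell cannot be told apart.

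The deposited values read as log2 intensities, from 5.19 to 15.25, but hardly differed between arrays. The median probe set had an SD of 6.07 millionths of a log2 unit over the 8 arrays, so differences are not log2 ratios of RNA amount and no fold changes are given. Instead, each array is given as its deviation from the probe set's mean over 8 arrays, in millionths of a log2 unit. Each difference is the high-fat mean less the normal mean, given in that unit with limma's moderated SE, and also divided by the pooled SD of the 2 diets (within-group SDs). Array medians differed by more than most of these values, with shifts from -80.1 to 137 millionths. Normal replicate 3 stood apart from the rest, with 22.9% of probe sets more than 1.5 SDs from their mean, against 6.86% to 12.3% in the other arrays. Blood markers were present as the tissue label says: the 5 measured red cell markers lay at or above the 97.2th percentile of all probe sets, and the median T cell marker at the 98.3th. Of 8 neutrophil markers S100a8 and S100a9 were bright, at the 98.9th and 99.5th, but their median was the 49th, with Lcn2 at the 10.4th.

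The members were mostly dim. Fcer1a (mean level 5.96 log2 units) and the second Ms4a2 probe set (6.13) lay below the 25th percentile of all probe sets, 6.22. The first Ms4a2 probe set (6.25) and Prg2 (6.27) lay between that and the median, 6.60. Hdc (6.68) and Cpa3 (6.88) lay just above the median. Alox15, at 9.81, stood at the 98.5th percentile. Levels of different probe sets also follow the binding of their probes, so no order of RNA amounts is read from them, and whether dim probe sets exceeded the background was not analysed here.

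Other markers ranged more widely. Of the eosinophil markers, the peroxidase Epx lay at the 31.7th percentile, the interleukin-5 receptor chain Il5ra at the 22.7th and the eotaxin receptor Ccr3 at the 70.5th. Among markers of basophils and mast cells, the stem cell factor receptor Kit lay at the 37.3th percentile and the interleukin-3 receptor chain Il3ra at the 57.2th. The measured markers of tissue mast cells ran from the chymase Cma1 at the 25.5th to the tryptase Tpsb2 at the 85.6th. Of the 33 measured genes of the wider list, each by its brightest probe set, 20 lay above the median of all probe sets. Taking the brightest probe set favours a higher level, and the same share over all genes was not analysed here. The name of the group therefore rests on what these genes are known for, since 4 of the 7 probe sets lay below the median of the array.

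Spread over the arrays differed widely within the group. Alox15 had an SD of 1343 millionths, exceeded by 124 of all probe sets, and it stayed at the 97.5th percentile among probe sets of like level (1 of 20 level bins). Fcer1a (24.7), Hdc (15.6) and Prg2 (14.4) were at the 95.9th, 82.5th and 87.3th percentiles of their level bins. The Ms4a2 probe sets (3.30 and 1.86) were at the 34.4th and 18.8th, and Cpa3 varied least, with an SD of 1.01 millionths at the 5.99th percentile. How strongly differences were compressed may vary between probe sets, so these spreads describe the deposited values and not the animals alone.

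**Figure D1:**
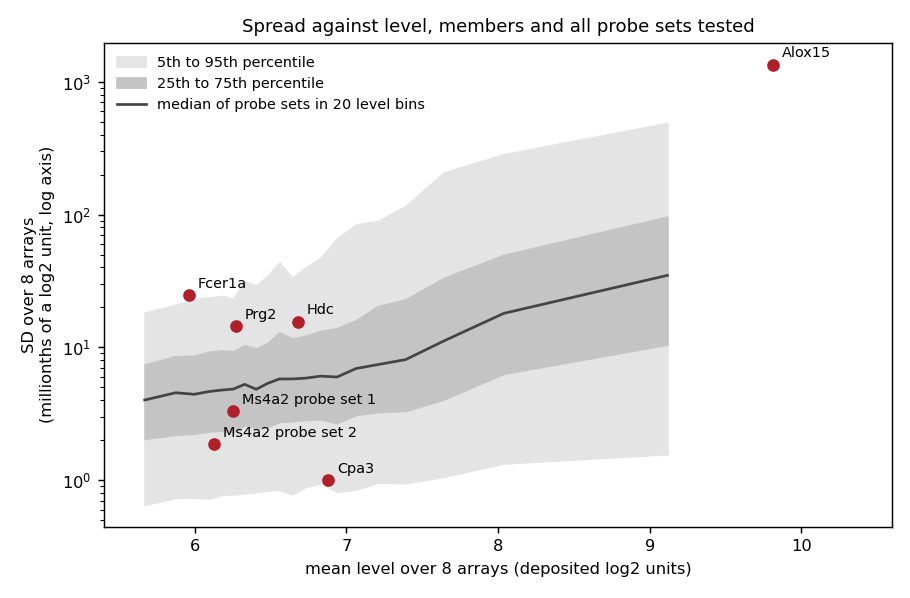
SD over 8 arrays (millionths of a log2 unit, log axis) against mean level (log2 units) for the 7 member probe sets (red points), with the median and percentile bands of all 31042 probe sets in 20 level bins. Alox15 lies far above the others in level and spread, at 9.81 and 1343, and Cpa3 near the lower edge of the band, at 1.01.

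No member was distinguished between the diets after adjustment. By limma, 0 of the 7 were below an adjusted p of 0.05, as were 0.00% of all 31042, and each member had an adjusted p of 1. At an unadjusted limma p under 0.05 there was 1 member, Prg2, where 2.25% of all probe sets (699) stood in either direction and 0.950% with the high-fat mean higher. All 7 had a higher mean in the high-fat group on the deposited values, against 46.6% of all probe sets, but centring each array on its median left 1 of 7 higher, where 1.63% of all probe sets were, and quantile normalization on top left 1 higher, 1 lower and 5 equal. Centring shifted the difference of every probe set by -66.0 millionths and took the median of all to -1.20 within-group SDs. Probe sets higher in the high-fat group fell from 14459 to 505, so a turn of sign under centring is no measure of these genes. Their median under centring was -0.780. Their median difference was 1.06 within-group SDs, against -0.0479 over all probe sets. The members were chosen with earlier results of these data known, so the shared direction is a description. Leaving out any 1 array kept all 7 higher on the deposited values. In every member the groups overlapped, while 1.44% of all probe sets had groups that did not, 0.586% with the high-fat arrays higher. The highest array was a high-fat one in all 7, which held for 45.5% of all probe sets. In 6 of 7 the lowest array was also a normal one, a combination found in 25.7% of all probe sets.

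Prg2 encodes the major basic protein of eosinophil granules. Normal replicates 1 to 4 deviated by -19.7, -19.1, 2.54 and -7.45 millionths from the mean of the 8 arrays, and high-fat replicates 1 to 4 by 20.0, 2.27, 11.1 and 10.2. The groups met at a single point: 3 high-fat arrays lay above all normal ones, and high-fat replicate 2 lay just under normal replicate 3. The high-fat mean was 21.8 ± 6.09 millionths (SE, n = 4 and 4) higher than the normal mean on the deposited values, or 2.40 within-group SDs, and the difference was -44.1 millionths (-0.765 within-group SDs) with each array centred on its median. By limma the unadjusted p was 0.00942 and the adjusted p 1, and the exact permutation p was 0.0571 (two-sided), where 4 against 4 arrays can give no less than 0.0286. A difference at least this large in within-group SDs, with the high-fat mean higher, was found in 0.238% of all probe sets. Leaving out 1 array gave from 2.12 (without normal replicate 2) to 3.69 within-group SDs (without normal replicate 3), and Prg2 was not called in any of these fits.

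Alox15, the bright and variable member, showed the least difference in within-group SDs. Its deviations were -685, -281, 930 and -1296 millionths in normal replicates 1 to 4 and -188, 1279, 2099 and -1859 in high-fat replicates 1 to 4. A high-fat array was the highest of all and another the lowest, so the high-fat values enclosed every normal one. The difference was 666 ± 930 millionths (SE, n = 4 and 4), or 0.476 within-group SDs. limma gave an adjusted p of 1 and the exact permutation test a p of 0.543. The difference was 0.0626 within-group SDs without high-fat replicate 3 and 1.35 without high-fat replicate 4, the 2 arrays at its extremes.

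Hdc, Cpa3 and Fcer1a had their highest value in the same array, high-fat replicate 2. For Hdc, the enzyme that forms histamine, normal replicates 1 to 4 lay at -7.16, -19.2, -6.63 and -5.54 millionths and high-fat replicates 1 to 4 at 14.3, 30.8, -7.32 and 0.670. High-fat replicates 1 and 2 were well above all normal arrays, replicate 4 slightly above them, and replicate 3 among them. The difference was 19.2 ± 8.46 millionths (SE, n = 4 and 4), 1.52 within-group SDs. limma gave an adjusted p of 1 and the exact permutation test a p of 0.114. With each array centred on its median the difference was -0.780 within-group SDs. Normal replicate 2 was far below the other normal arrays, which lay within 2 millionths of each other.

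Cpa3 encodes a carboxypeptidase of mast cell and basophil granules. Its normal arrays deviated by -0.208, -1.53, -1.01 and 1.25 millionths and its high-fat arrays by 0.446, 1.37, -0.237 and -0.0810, in the order of replicates 1 to 4. Normal replicate 4 was second only to high-fat replicate 2, so the groups were mixed. The difference of 0.748 ± 1.01 millionths (SE, n = 4 and 4) was 0.749 within-group SDs. limma gave an adjusted p of 1 and the exact permutation test a p of 0.314. The difference was 1.84 within-group SDs without normal replicate 4 and 0.396 without normal replicate 2, and -1.20 with each array centred on its median.

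For Fcer1a, the IgE-binding chain, normal replicates 1 to 4 lay at -8.22, -8.22, -0.760 and -36.7 millionths and high-fat replicates 1 to 4 at -5.78, 43.6, -11.2 and 27.3. High-fat replicates 2 and 4 were high, normal replicate 4 was low, and the remaining 5 arrays lay close together. The difference was 27.0 ± 14.5 millionths (SE, n = 4 and 4), 1.24 within-group SDs. limma gave an adjusted p of 1 and the exact permutation test a p of 0.229. The difference was -0.704 within-group SDs with each array centred on its median.

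The beta chain of the receptor, Ms4a2, was read by 2 probe sets with a like pattern over the arrays. The first lay at -3.13, -5.21, -0.354 and 3.09 millionths in normal replicates 1 to 4 and at 2.59, 1.54, 3.84 and -2.37 in high-fat replicates 1 to 4. The second lay at -2.35, -1.87, 0.288 and 0.318 in the normal and at 1.16, 0.531, 3.35 and -1.42 in the high-fat replicates. Both were highest in high-fat replicate 3, low in normal replicates 1 and 2, and lower in high-fat replicate 4 than in the other high-fat arrays. The differences were 2.80 ± 2.24 and 1.81 ± 1.37 millionths (SE, n = 4 and 4), or 0.884 and 1.06 within-group SDs. Both had an adjusted p of 1 by limma, and the exact permutation p was 0.257 and 0.143. Centred on the array medians, they were -1.13 and -1.16 within-group SDs.

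**Figure D2:**
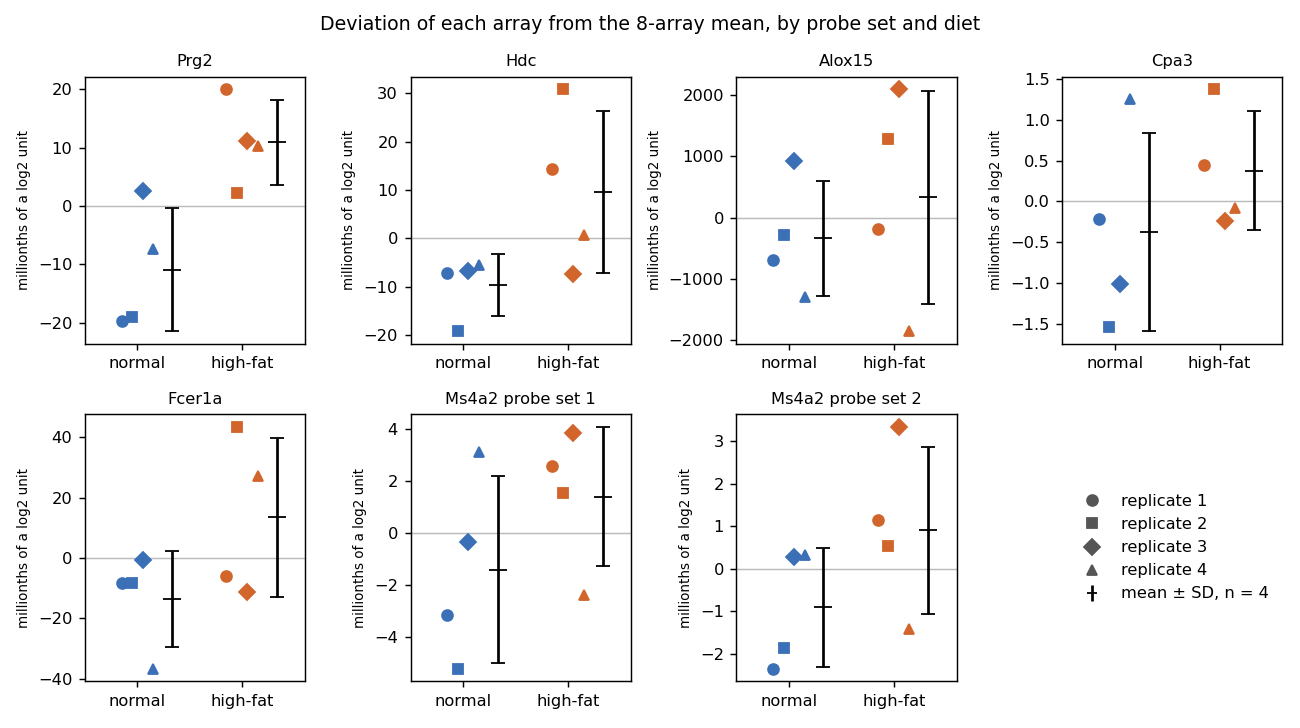
Deviation of each array from the 8-array mean (millionths of a log2 unit, deposited values) for the 7 member probe sets, by diet. Symbols are replicates and bars the mean ± SD (n = 4); in every panel the high-fat mean is higher, the groups overlap, and for all but Alox15 centring the arrays on their medians turns the difference, as it leaves 1.63% of all probe sets higher.

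The 2 Ms4a2 probe sets had a Pearson r of 0.89 over the 8 arrays (exact permutation p = 0.00293) and a Spearman rho of 0.90 (exact permutation p = 0.00456). With the diet means subtracted r was 0.86 (exact permutation p = 0.0156, pairings permuted within diets). Leaving out normal replicates 1 and 2, the arrays farthest from the median of the first probe set, gave 0.83. Among 3060 other genes with 2 probe sets, the median r was 0.18 and 2.84% had an r at least as high. Whether the 2 probe sets share probes was not analysed here.

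Covariation between different members was weaker. Each gene was represented by its brighter probe set, and all 15 pairs of the 6 genes were compared over 8 arrays with exact permutation tests, two-sided, adjusted over the pairs. Where 2 arrays are left out, they are those farthest from the median of the gene named first. Of these, 13 had an r above 0, with a median of 0.29, and 0 passed an adjusted p of 0.05 by r or by rho. Within diets 9 of 15 were above 0, with a median of 0.05. Centring each array on its median, which adds the same array shifts to every gene, gave 15 of 15 above 0 and 10 passing, with a median r of 0.92.

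Hdc, the histamine-forming enzyme, and Cpa3, the granule protease, had the largest r, 0.73 (exact permutation p = 0.0327, adjusted p = 0.362), with a rho of 0.86 (exact permutation p = 0.0107, adjusted p = 0.161). Within diets r was 0.69 (exact permutation p = 0.0139, adjusted p = 0.208), and without high-fat replicates 1 and 2, the farthest for Hdc, 0.61. Leaving out 1 array gave r from 0.59 (without high-fat replicate 2) to 0.94 (without normal replicate 4). Only the omission of normal replicate 4 passed the adjustment (exact permutation test, adjusted p = 0.0149), and no other omission did. Hdc and Fcer1a had an r of 0.66 (exact permutation p = 0.0794), and Cpa3 and Ms4a2 also 0.66 (exact permutation p = 0.0786), each with an adjusted p of 0.362. The first was 0.36 without high-fat replicates 1 and 2, and the second was 0.60 without normal replicate 4 and high-fat replicate 2.

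No common pattern was detected for the alpha and beta chains of the IgE receptor, and its gamma chain, Fcer1g, was not compared. Fcer1a and Ms4a2 had an r of -0.17 (exact permutation p = 0.667, adjusted p = 0.793) and a rho of -0.31. Within diets r was -0.61 (exact permutation p = 0.125, adjusted p = 0.904), and centring each array on its median turned it to 0.91. High-fat replicate 4 showed the contrast, with Fcer1a second highest and both Ms4a2 probe sets sixth of 8.

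Prg2, the eosinophil gene, had its largest r with Ms4a2, 0.64 (exact permutation p = 0.0966, adjusted p = 0.362), which was -0.03 without normal replicates 1 and 2 and so rested on those arrays. Its r with Alox15, the other gene made by eosinophils, was 0.25 (exact permutation p = 0.531, adjusted p = 0.793). Its r with Hdc was 0.52 over all arrays (exact permutation p = 0.191, adjusted p = 0.574) and -0.04 within diets. Alox15 had its largest r with Ms4a2, 0.43 (exact permutation p = 0.285, adjusted p = 0.611), which was 0.04 without high-fat replicates 3 and 4. The dimmer Ms4a2 probe set gave 0.70 with Alox15 and 0.31 with Cpa3, against 0.43 and 0.66 for the brighter one, so these values depend on the probe set. Alox15 and Fcer1a had an r of 0.16, which was 0.88 without those same arrays. The remaining pairs had r between -0.07 and 0.45.

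**Figure D3:**
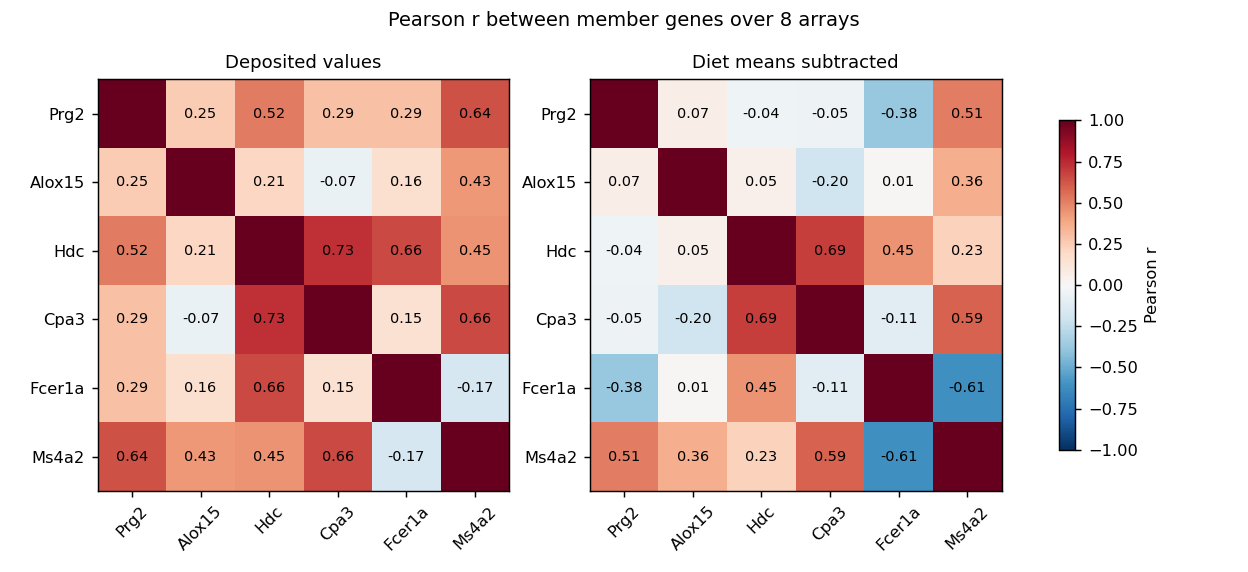
Pearson r between the 6 member genes over 8 arrays, on the deposited values (left) and with the diet means subtracted (right). Hdc and Cpa3 keep an r of 0.69 within diets, Prg2 and Hdc go from 0.52 to -0.04, and Fcer1a and Ms4a2 are at -0.17 and -0.61; centring arrays on their medians, not drawn, puts all 15 pairs above 0.

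Promoters are shown for Cpa3, Fcer1a and Hdc, the 3 members highest in the same array and the 3 of 6 found in the RefSeq promoter table (build GRCr8). GATA factors, which drive the basophil and mast cell lineage, bind short sites around the letters GATA. The motifs searched were AGATAA, its variant AGATAG, the form TGATAA and the form TGATAG, all on both strands, and no matches overlapped. The 206 bases shown, from 250 to 45 bases before the start in the table, end upstream of each annotated gene, and capitals mark matches. All 3 genes lie on the minus strand, at chr2:104673282-104673487 for Cpa3, chr13:88224724-88224929 for Fcer1a and chr3:134318749-134318954 for Hdc.
Cpa3: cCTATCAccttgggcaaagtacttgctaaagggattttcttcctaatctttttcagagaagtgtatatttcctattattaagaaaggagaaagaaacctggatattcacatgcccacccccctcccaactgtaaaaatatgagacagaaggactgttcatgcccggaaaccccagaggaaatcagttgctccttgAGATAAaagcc
Fcer1a: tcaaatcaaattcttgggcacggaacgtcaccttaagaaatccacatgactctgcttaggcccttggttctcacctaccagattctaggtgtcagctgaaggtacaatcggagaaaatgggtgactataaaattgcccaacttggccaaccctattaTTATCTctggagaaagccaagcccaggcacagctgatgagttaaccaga
Hdc: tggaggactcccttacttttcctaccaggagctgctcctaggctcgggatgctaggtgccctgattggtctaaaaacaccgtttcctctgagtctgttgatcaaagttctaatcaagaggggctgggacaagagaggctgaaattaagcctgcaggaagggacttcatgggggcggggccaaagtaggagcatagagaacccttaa

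Cpa3 had AGATAA starting 55 bases and TGATAG, read on the opposite strand, 249 bases before the start. Fcer1a had AGATAA on the opposite strand 93 bases before the start, and Hdc had no match in this window. Of 33469 promoters cut to the same window, 23.7% held at least 1 match. A match describes letters and no binding was measured. Of the pair with the largest r, Hdc and Cpa3, only Cpa3 held a match in this window. Whether this bears on their covariation was not tested.

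The wider list of eosinophil, basophil and mast cell genes holds 40 genes, of which 33 were measured, the 6 members among them. No gene of it passed limma, where 0.00% of 14217 genes passed. On the deposited values 16 of the 27 other measured genes had a higher mean in the high-fat group and 11 a lower one, against 47.4% higher over all genes, and of all 33 listed genes 22 were higher. With each array centred on its median 2 of 33 were higher, where 2.38% of all genes were. The median difference of the 27 was 0.181 within-group SDs, against -0.0374 over all genes and 1.06 over the 7 member probe sets. Since the members were chosen with earlier results of these data known, their larger median is a description.

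Of eosinophil granule and receptor genes, 9 of 14 were measured, 5 higher and 4 lower. Besides Prg2, the smallest p belonged to Ccr3 at -1.09 and the lineage factor Gata2 at 1.93 within-group SDs, the latter -1.20 with each array centred. Epx, stored in the same granules as Prg2, stood at -0.244. The 14 measured protease and granule-related genes of mast cells and basophils had 11 higher and 3 lower on the deposited values. After Hdc, the mast cell proteases Mcpt10 and Cma1 stood at 1.17 and 1.11 within-group SDs, and at -1.05 and -1.04 with centring. Of the 10 IgE and cytokine receptor genes, 6 were higher and 4 lower. The smallest p there belonged to Il1rl1, whose product is the receptor for an alarm cytokine, at -1.80 within-group SDs (limma adjusted p = 1). Leaving out 1 array gave from -4.42 (without normal replicate 2) to -1.51 (without high-fat replicate 2), and quantile normalization on top gave -0.665. Il3ra stood at 1.17, and at -1.15 with centring.

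**Figure D4:**
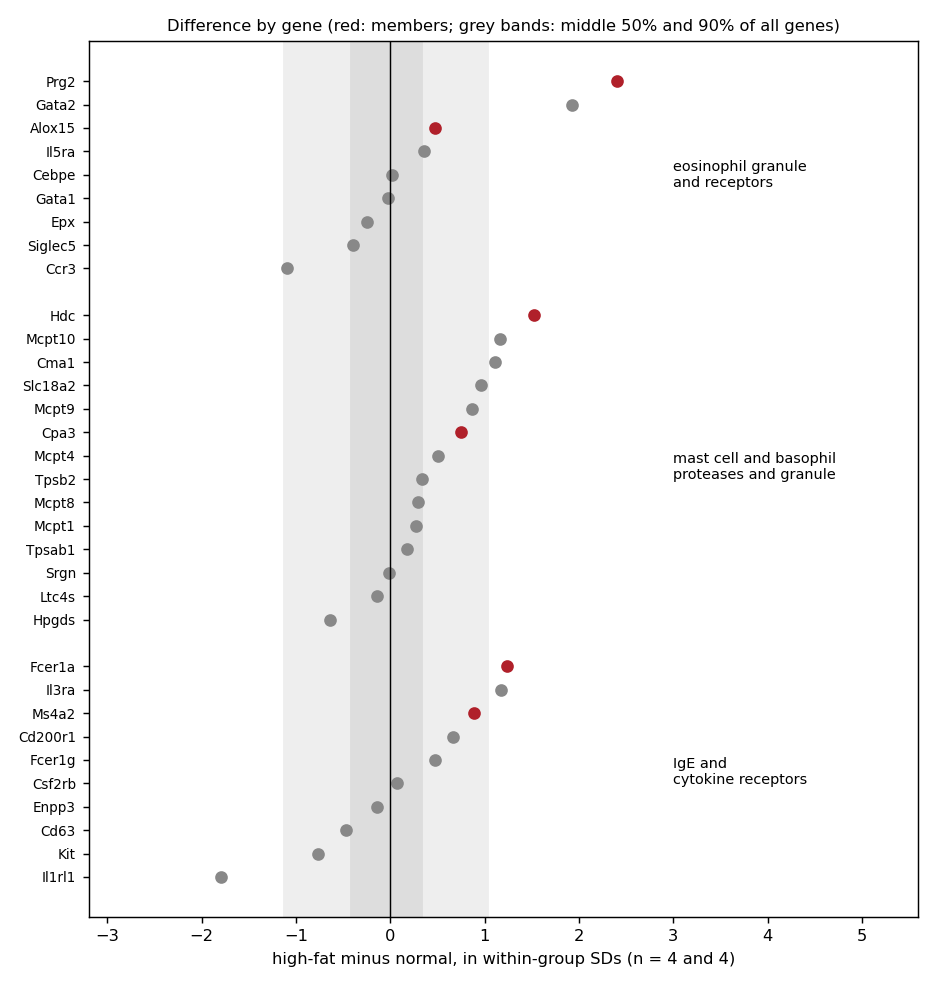
High-fat minus normal in within-group SDs (n = 4 and 4, deposited values) for the 33 measured genes of the wider list, members in red, with bands for the middle 50% and 90% of all 14217 genes. Prg2 lies at 2.40 and Il1rl1 at -1.80, and 25 of the 33 fall inside the wider band; centring arrays on their medians leaves 2 of the 33 above 0 and 2.38% of all genes.

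Pathways around the members were measured in the same fit, and 0 of their 47 measured genes passed limma. Of 14 IgE receptor signalling genes 11 were higher on the deposited values, with a median of 0.136 within-group SDs. The exchange factor Vav1 stood at 0.940, the adaptor Gab2 at 0.619 and the receptor's gamma chain Fcer1g at 0.474. Centring, which shifted every difference by -66.0 millionths, took Vav1 and Gab2 to -0.824 and -1.17 by that shift. Fcer1g turned to -0.293 when high-fat replicate 4 was left out. Of 8 genes of histamine transport, breakdown and sensing 5 were higher (median 0.0730), led by the vesicle transporter Slc18a2 at 0.958, the receptor Hrh2 at -0.679 and the transporter Slc22a3 at 0.445. Slc18a2 and Slc22a3 were at -0.691 and -1.16 with centring. Of 11 lipoxygenase and leukotriene genes 5 were higher (median -0.146). The leukotriene receptors Cysltr2 and Ltb4r2 stood at 1.19 and -1.01 and the platelet lipoxygenase Alox12 at -0.619, with Cysltr2 at -1.02 after centring. Of 14 type 2 cytokines and receptors 6 were higher (median -0.316), with the epithelial cytokine Tslp, at the 1.26th percentile of levels, at 1.71 and -1.01 after centring. The 4 lists together had 27 of 47 genes higher, and 1 of 47 with centring, where 2.38% of all genes were higher.

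Markers of other blood cells also varied between these arrays. In scaled levels (each gene at mean 0 and SD 1 over 8 arrays, averaged over a list), the 5 of 7 measured red cell markers lay from -0.70 to -0.27 in the normal and from -0.31 to 1.07 in the high-fat group. Monocyte markers (7 of 7) lay from -0.38 to -0.14 and from -0.49 to 2.14, and natural killer markers (6 of 6) from -0.80 to 0.03 and from -0.43 to 1.96, both highest in high-fat replicate 4. On the deposited values red cell markers had a median difference of 1.59 within-group SDs, above that of the members. Of the 5, 3 had an unadjusted limma p under 0.05, as did 2.25% of all probe sets in either direction, with 0 called. Hemgn, made in maturing red cells, was at 2.63 (limma adjusted p = 1). Its groups did not overlap, which held for 1.44% of all probe sets. Alas2 stood at 0.328 and Hbb at 1.54e-07 within-group SDs. All 7 monocyte markers and all 6 natural killer markers were also higher, with medians of 0.548 and 0.780, where 47.4% of all genes were. Other lists went the other way: 1 of 8 T cell, 1 of 3 B cell and 1 of 5 platelet markers were higher. Their medians were -0.325, -0.189 and -0.186. Among neutrophil markers 6 of 8 were higher, with a median of 0.157. Neutrophil markers (8 of 9) lay from -0.85 to 0.77 and from -1.03 to 0.74, and T cell markers (8 of 8) from -1.39 to 1.12 and from -0.49 to 0.37. B cell markers (3 of 6) lay from -0.95 to 1.13 and from -0.78 to 1.14, and platelet markers (5 of 6) from -0.34 to 0.63 and from -1.39 to 0.48. High-fat replicate 2, which was highest for Hdc, Cpa3 and Fcer1a, was the lowest array for neutrophil and monocyte markers and the highest for B cell markers. The 6 basophil and mast cell markers, of which 4 are members, lay from -0.80 to -0.18 and from -0.09 to 0.88 on the deposited values. Since the members were chosen with earlier results of these data known, this gap between the diets is a description. Of the markers that are not members, Il3ra stood at 1.17 and Kit at -0.766 within-group SDs. Eosinophil markers (4 of 5) lay from -0.61 to 0.66 and from -0.19 to 0.45. Tissue mast cell markers (4 of 5) lay from -1.32 to 0.83 and from -0.33 to 1.07. No listed marker was at 0, since the lowest deposited value was 5.19. The part of these markers in the members' values was not tested.

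A pattern shared by many probe sets took up 31.5% of the scaled variance, with normal replicate 3 at one end. Over the 8 arrays its r with the members was 0.60 for Alox15, 0.61 and 0.45 for the Ms4a2 probe sets, 0.44 for Prg2 and between -0.24 and -0.08 for Hdc, Cpa3 and Fcer1a. These are descriptions over 8 arrays that share their normalization.

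For each member the 2 genes with the most similar pattern were found by Pearson r over 8 arrays, among 20819 probe sets with 1 symbol. Prg2 was closest to Ascl2 (r = 0.988) and Apeg3 (0.936), Hdc to Hes6 (0.957) and Telo2 (0.949), and Cpa3 to Git2 (0.959) and LOC100909405 (0.955). Alox15 was closest to Prdm8 (0.986) and Usp5 (0.969), Fcer1a to Syt7 (0.923) and Zswim6 (0.914), and Ms4a2 to Creg1 (0.959) and Opn1sw (0.954). Between 3 probe sets (Fcer1a) and 47 (Alox15) had an r of at least 0.9. With 8 arrays and so many candidates such values are a description of likeness alone.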

How the data were processed

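Blood RNA was read on 8 Affymetrix arrays (200 ng of RNA each, per the labels' protocols). The authors deposited 1 table of log2 intensity values. Background correction, normalization and probe summary are not given in the sources used here, and differences between arrays are strongly compressed. The number of arrays limits the precision.

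Of 31099 probe sets, 57 controls were left out. Gene names came from the platform annotation (1 symbol for 20826 probe sets), and all 7 member probe sets matched GRCr8 by gene number. Groups came from sample titles. limma 3.58.1 in R 4.3.3 (lmFit, eBayes, two-sided, no covariates) was fitted on 31042 probe sets with Benjamini-Hochberg adjustment and a threshold of 0.05, after tests on simulated data. Correlations used all 40320 pairings of the arrays. Genes were represented by their brightest probe set. From each list, the 3 genes with the smallest p were named, and other named genes of the lists were chosen after their values were seen. The members and lists were chosen with earlier results of these data known. Alternatives were quantile normalization on top, median centring, the brighter 50% of probe sets, array weights, a replicate block, eBayes with its trend and robust options, an exact permutation test and leaving out arrays.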

Additional observations from a re-analysis of the deposited data

Results flagged for a closer look

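Normal replicate 2 lay far below the other normal arrays for Hdc: its gap to the nearest of them was 0.881 of the normal range, above Dixon's critical value for 4 samples. Of the 14 groups tested (7 probe sets in 2 diets), 1 was past that value, where chance alone gives about 1 in 20. Without this array the difference of Hdc was 1.24 within-group SDs, against 1.52.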

How the results depend on the processing

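No member probe set and no listed gene was called by limma under any alternative, nor any member by the exact permutation test. Centring each array on its median left 1 of 7 members, 2 of 33 genes of the wider list and 1 of 47 pathway genes higher, where 1.63% of all probe sets and 2.38% of all genes were, with differences of -0.765 (Prg2), -0.780 (Hdc), -1.20 (Cpa3), -0.704 (Fcer1a), -1.13 and -1.16 (Ms4a2), -1.20 (Gata2), -1.05 (Mcpt10), -1.04 (Cma1), -1.15 (Il3ra), -0.824 (Vav1), -1.17 (Gab2), -0.691 (Slc18a2), -1.16 (Slc22a3), -1.02 (Cysltr2) and -1.01 (Tslp) within-group SDs. It gave 10 of 15 pairs past the threshold, and r of 0.55 for Alox15 and Cpa3 and 0.91 for Fcer1a and Ms4a2. It subtracts array shifts of up to 137 millionths, more than the SD of all members but Alox15. Quantile normalization left 1 of 7, 8 of 33 and 10 of 47 higher and 5, 17 and 24 with equal means, where 24.0% of all genes were higher and 5812 of 14217 equal, with Cpa3 at -1.22, Ccr3 at 0.876, Gata2 at -0.166 and Ltb4r2 at 1.00. The 5 member probe sets were equal on all arrays, so r could be had for 1 pair only (Cpa3 and Fcer1a, -0.33; 0 pairs above 0), and 32 of all probe sets were called, against 0. Among the brighter 50%, 3 of 3 members and 12 of 20 genes were higher. With diet means subtracted r was -0.04 for Prg2 and Hdc, -0.05 for Prg2 and Cpa3, -0.38 for Prg2 and Fcer1a and -0.11 for Cpa3 and Fcer1a. Leaving out 1 array, 0 to 1 pairs passed (Hdc and Cpa3, without normal replicate 4). Ranges that crossed 0 were -0.05 to 0.47 (Prg2 and Cpa3), -0.37 to 0.16 (Alox15 and Cpa3), -0.17 to 0.55 (Alox15 and Fcer1a), -0.45 to 0.07 (Fcer1a and Ms4a2), -0.17 to 0.44 (Hdc and Alox15), -0.41 to 0.65 (Cpa3 and Fcer1a) and -0.293 to 0.854 within-group SDs (Fcer1g). Where no construction is given, the cause was not tested. With the replicate block, 7 of 7 members and 22 of 33 genes were higher and 0 were called. Deviations of same-numbered arrays correlated at -0.12, 0.20, 0.35 and 0.14. Normal replicates 2, 3 and 4 correlated best with the array of their own number, and normal replicate 1 did not. The main fit did not take the numbers as pairs, and these values do not settle whether they are. Alternatives for the pathway lists were chosen after seeing the data. Of 572 alternative values, 515 kept their direction and side of the threshold, 36 changed direction, 12 gained a call and 9 counts moved by over 1.5 times.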
